A study of Mus musculus with 28 samples.

Results

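The 10 heat shock chaperone genes described here were chosen by name from the 55291 gene rows of each expression table: Hspa1a, Hspa1b, Hspa8, Hsp90aa1, Hsp90ab1, Hspb1, Dnajb1, Hsph1, Hspd1 and Hspe1. All 10 were present in all 3 tables, which together hold 28 RNA-seq libraries in 8 groups. In a 36 h experiment, wild-type LLC cells, a mouse lung carcinoma line, received vehicle or 200 nM BAY-876, an inhibitor of the glucose transporter GLUT1, with 3 libraries per group. In a 32 h experiment, wild-type LLC cells were left untreated or given 200 nM BAY-876 for 24 h, and then left untreated or given 20 ng/ml of the cytokine TNF for 32 h, which makes 4 groups of 3 libraries named here control, BAY-876 alone, TNF alone and the combination. The labels do not say whether the inhibitor was kept during the second step. On day 16, LLC-OVA-NGFR tumour cells (5 libraries) and OT1 cells (5 libraries), T cells that carry a transgenic receptor for an ovalbumin peptide, were sorted from subcutaneous tumours in Rag1 knockout hosts. These hosts cannot form lymphocytes with rearranged receptors but keep myeloid cells, and every tumour had received activated OT1 cells on day 9, so no tumour without T cells was among these groups. The labels give neither animal ages nor the gates of the sort.

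Heat shock proteins bind unfolded stretches of other proteins and help them to fold. In the cytosol, a client is passed by a J-domain protein such as DNAJB1 to HSP70 (HSPA1A, HSPA1B, HSPA8), released from it with the help of a nucleotide exchange factor such as the HSP110 protein HSPH1, and often handed on to HSP90 (HSP90AA1, HSP90AB1), while the small protein HSPB1 holds aggregating proteins without using ATP. In the mitochondrial matrix, HSPD1 (HSP60) forms a folding chamber that HSPE1 (HSP10) closes as a lid. HSPA8 and HSP90AB1 are the constitutive forms of their families, and the others named here are induced to differing degrees by heat shock factor 1 (HSF1), which binds repeated GAA and TTC units in their promoters when unfolded proteins draw chaperones away from it. Tumour cells are known for high chaperone levels, and activated T cells raise several of these genes.

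The DNA upstream of the start sites is shown first because 2 pairs of the genes share sequence or position. Sequences are from RefSeq on GRCm38.p6, whose table has entries for 7 of the 10 genes (all but Hspa8, Hsp90aa1 and Hsp90ab1). Hspa1a (chromosome 17, 34969190 to 34972156, minus strand, in GENCODE M21 on GRCm38) and Hspa1b (chromosome 17, 34956436 to 34959238, minus strand) are single-exon genes that encode the inducible HSP70. Their 250 bases upstream of the start differ at 3 positions, and their coding sequences are identical at 99.4% of aligned positions, with 88.4% of all 31-base stretches of the Hspa1a coding sequence also found in Hspa1b. How reads were shared out between them therefore bears on each gene's value, and their sum is given beside them where a result turns on them. The windows of both genes and of Hspb1 (chromosome 5, 135887919 to 135889563, plus strand) are printed 5′ to 3′ on the strand of the gene and end at the base before its start, with matches to GAANNTTC, the pair of heat shock units, in capitals.
Hspa1a, chr17:34972157-34972406, minus strand: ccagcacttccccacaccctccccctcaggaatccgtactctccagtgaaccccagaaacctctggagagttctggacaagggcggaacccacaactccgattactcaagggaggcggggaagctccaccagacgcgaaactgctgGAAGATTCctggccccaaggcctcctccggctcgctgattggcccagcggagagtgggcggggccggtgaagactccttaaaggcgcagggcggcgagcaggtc
Hspa1b, chr17:34959239-34959488, minus strand: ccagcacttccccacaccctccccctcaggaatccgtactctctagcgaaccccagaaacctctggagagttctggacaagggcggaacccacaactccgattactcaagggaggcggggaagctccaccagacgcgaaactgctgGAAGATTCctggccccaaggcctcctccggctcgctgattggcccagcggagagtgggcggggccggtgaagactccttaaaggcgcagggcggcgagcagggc
Hspb1, chr5:135887669-135887918, plus strand: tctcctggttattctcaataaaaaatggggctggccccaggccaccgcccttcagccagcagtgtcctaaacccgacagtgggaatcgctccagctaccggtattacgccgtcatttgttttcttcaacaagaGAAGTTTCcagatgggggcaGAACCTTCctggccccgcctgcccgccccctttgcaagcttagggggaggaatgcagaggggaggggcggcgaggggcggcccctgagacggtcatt

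Hspd1 (chromosome 1, 55077835 to 55088243, minus strand) and Hspe1 (chromosome 1, 55088132 to 55091307, plus strand) lie head to head, and their GENCODE models overlap by 112 bases. One run of 18 bases upstream of a start site of each gene holds 4 alternating GAA and TTC units, and it reads as a heat shock element from either side. It lies 144 to 127 bases upstream of the second start site of Hspd1 and 89 to 72 bases upstream of the start of Hspe1, inside the GENCODE model of Hspd1. It is shown on the strand of each gene.
Hspd1, chr1:55088059-55088076, minus strand: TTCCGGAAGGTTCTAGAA
Hspe1, chr1:55088059-55088076, plus strand: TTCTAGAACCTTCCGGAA
Of the 7 genes with an entry, 6 held GAANNTTC or TTCNNGAA on the printed strand in the 250 bases (each pattern reads the same on both strands), as did 12.8% of all 32817 windows. The 6 are not independent, since Hspa1a and Hspa1b are near copies and Hspd1 and Hspe1 share the 18-base run. A gene with 2 windows was counted if either held a match, while the share is per window. The longer pattern of GAANNTTC followed directly by NNGAA, searched on both strands and overlapping the shorter patterns, was found in Hspd1 and Hspe1 and in 0.466% of all windows. Hsph1 (chromosome 5, 149614287 to 149636376, minus strand) held TTCTCGAA 33 to 26 bases before its first listed start. Dnajb1 (chromosome 8, 83608193 to 83612653, plus strand) held neither short pattern in its windows. These are matches of letters, and binding was not measured. Without an entry in the table were Hspa8 (chromosome 9, 40800984 to 40810087, plus strand), Hsp90aa1 (chromosome 12, 110690605 to 110702728, minus strand) and Hsp90ab1 (chromosome 17, 45567775 to 45573271, minus strand).

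The 36 h values are normalized counts that sum to between 16847994 and 17134536 per library, and the 32 h and day 16 values are TPM (transcript abundances corrected for length and scaled to a fixed total per library), whose read depth is unknown. Tumour cell markers were at 1 TPM or more for 7 of 8 genes in every 32 h and day 16 LLC library. Their levels moved with the treatments at 32 h: of 7 tested, 4 fell with BAY-876, 5 fell and 2 rose with TNF, and 5 fell and 1 rose with both. Fibroblast markers, which LLC cells also express, summed to 847 to 869 TPM in control, 838 to 850 TPM with BAY-876, 362 to 425 TPM with TNF and 304 to 347 TPM with both, and their part in the chaperone results was not tested. All 10 T cell markers were at 1 TPM or more in every OT1 library, with summed levels of 2494 to 4028 TPM against 8.45 to 12.2 TPM in tumour cells. The labels do not say that replicates were separate cultures or animals, so each p measures the spread between these libraries, which may be technical. Adjusted p-values are from limma with Benjamini-Hochberg adjustment over all tested genes, and a gene was called at an adjusted p under 0.05. Differences are on the log2(value + 1) scale, with their standard error (SE), and the group named first is compared with the second.

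In untreated LLC cells of the 32 h experiment the constitutive forms led. Hsp90ab1 stood at 3676 ± 22.3 TPM (SD, n = 3) and Hspa8 at 3095 ± 304 TPM, followed by the mitochondrial pair Hspe1 at 909 ± 32.3 TPM and Hspd1 at 828 ± 14.3 TPM. Below them came Hsp90aa1 at 542 ± 23.6 TPM, Hsph1 at 146 ± 8.11 TPM, Dnajb1 at 41.3 ± 1.74 TPM and Hspa1b at 7.27 ± 1.47 TPM. No neighbours in this order overlapped between libraries down to Hspa1b. Hspb1 and Hspa1a were nearly silent and overlapped each other, with no library of the 32 h experiment above 0.451 TPM for Hspb1 or 0.269 TPM for Hspa1a. Both fell below the filter of 1 TPM in 3 libraries, so 8 of the 10 genes were tested in culture. Together the 10 transcripts made up 0.924 ± 0.0266% of the control libraries (n = 3) by TPM. This share was 1.06 ± 0.0149% with BAY-876, 1.11 ± 0.00751% with TNF and 1.24 ± 0.0252% with both. In the 36 h experiment, by normalized counts, it was lower with BAY-876 (1.27 ± 0.00528%) than with vehicle (1.36 ± 0.00405%, n = 3 each). In bulk RNA, fewer cells of a type and less RNA per cell cannot be told apart.

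With BAY-876 alone, 6 of the 8 tested genes rose and none fell at 32 h, while 11.5% of all 12780 tested genes were called higher and 25.8% lower. The median difference of the 8 was 0.24 (log2), against -0.09 over all tested genes. The co-chaperone Hsph1 gave the clearest separation: it stood at 137, 147 and 153 TPM in control and at 205, 203 and 202 TPM with BAY-876. Every treated library lay above every control, by 0.48 ± 0.06 (log2 ± SE, 1.39-fold, adjusted p = 0.000103). Hspa1b went from 8.92, 6.10 and 6.78 TPM to 11.4, 10.3 and 10.8 TPM, again without overlap, a rise of 0.53 ± 0.11 (adjusted p = 0.00283) at low levels.

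The mitochondrial lid Hspe1 measured 898, 884 and 946 TPM in control and 1147, 1228 and 1137 TPM with BAY-876. It rose by 0.36 ± 0.05 (log2 ± SE, adjusted p = 0.000104), and its partner Hspd1 rose by 0.23 ± 0.03 (adjusted p = 0.000139). Hspa8, the constitutive HSP70, was at 3172, 3352 and 2760 TPM in control and at 3843, 3546 and 3662 TPM with BAY-876. The groups did not overlap, and the rise of 0.26 ± 0.06 had an adjusted p of 0.00637. Hsp90ab1 rose by 0.13 ± 0.02 (adjusted p = 0.00163). The inducible Hsp90aa1 was not called (0.03 ± 0.04, adjusted p = 0.636), nor was the J-domain protein Dnajb1 (-0.14 ± 0.06, adjusted p = 0.0894). With quantile normalization, which sets the distributions of the libraries equal, Hspa8 (0.18, adjusted p = 0.0538) and Hsp90ab1 (0.04, adjusted p = 0.613) were no longer called. Genes called higher were then 49.3% of all called genes in place of 30.8%. The authors' deposited table for this comparison has the genes called before quantile normalization as higher at an adjusted p under 0.05. Hsp90aa1 was higher there as well, at a log2 fold change of 0.13.

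With TNF alone, 5 of the 8 tested genes rose and none fell, against 19.4% higher and 26.1% lower among all tested genes, and the median difference of the 8 was 0.28, against -0.06 over all tested genes. Hspd1 stood at 821, 818 and 844 TPM in control and at 1289, 1308 and 1298 TPM with TNF. These groups were far apart, with a rise of 0.65 ± 0.03 (log2 ± SE, 1.57-fold, adjusted p = 1.42e-08). Hsp90aa1, the stress-inducible cytosolic HSP90, stood at 547, 563 and 517 TPM in control and at 782, 827 and 756 TPM with TNF. It rose by 0.54 ± 0.04 (1.45-fold, adjusted p = 9.12e-07).

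Hspe1 rose by 0.45 ± 0.05 (log2 ± SE, adjusted p = 8.2e-06) with TNF, to 1201, 1255 and 1280 TPM, all above the controls. Hsph1, at 187, 199 and 170 TPM with TNF, rose by 0.34 ± 0.06 (adjusted p = 0.000571). Hsp90ab1 rose by 0.21 ± 0.02 (adjusted p = 3.45e-05). Hspa8 (0.11 ± 0.06, adjusted p = 0.163), Hspa1b (0.22 ± 0.11, adjusted p = 0.125) and Dnajb1 (-0.03 ± 0.06, adjusted p = 0.764) were not called, and in each the libraries of the groups overlapped. Hspa8 was called without control replicate 2 (0.17, adjusted p = 0.0371), and Hspa1b with quantile normalization (0.39, adjusted p = 0.0126) and without control replicate 1 (0.36, adjusted p = 0.0067). Over all alternatives, the adjusted p of Hspa8 ranged from 0.0371 to 0.634 and that of Hspa1b from 0.0067 to 0.416. The authors' deposited table has the genes called here as higher with TNF, and Hspa8 in addition.

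With BAY-876 and TNF together, 7 of the 8 tested genes were higher than in control and 1 was lower, against 20.9% higher and 37.9% lower over all tested genes. Quantile normalization moved the median of all genes from -0.13 to 0.02 in this comparison and the genes called higher from 35.6 to 51.2% of all called. Hspd1 reached 1375, 1299 and 1378 TPM and was 0.71 ± 0.03 (log2 ± SE, adjusted p = 3.45e-09) above control. Hspe1 reached 1346, 1462 and 1482 TPM, 0.65 ± 0.05 (adjusted p = 2.11e-07) above control. All 3 libraries of each lay above all controls.

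Hsp90aa1 (0.54 ± 0.04), Hspa1b (0.47 ± 0.11), Hspa8 (0.37 ± 0.06), Hsph1 (0.33 ± 0.06) and Hsp90ab1 (0.31 ± 0.02) were also above control, with adjusted p from limma between 4.28e-07 and 0.00279. Dnajb1 went the other way. It stood at 42.0, 39.3 and 42.6 TPM in control and at 36.5, 37.3 and 33.4 TPM with both agents, a fall of 0.20 ± 0.06 (adjusted p = 0.0126). That call was lost with quantile normalization (-0.12, adjusted p = 0.103) and without replicate 3 of the combined treatment (-0.16, adjusted p = 0.0521), within a range of 0.0115 to 0.103 over all alternatives.

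Adding TNF to BAY-876 raised 4 of the 8 tested genes and lowered none, against 19.3% higher and 24.8% lower over all tested genes. They were Hsp90aa1 by 0.51 ± 0.04 (log2 ± SE, adjusted p = 1.27e-06), Hspd1 by 0.48 ± 0.03 (adjusted p = 1.62e-07), Hspe1 by 0.29 ± 0.05 (adjusted p = 0.000283) and Hsp90ab1 by 0.18 ± 0.02 (adjusted p = 8.31e-05). Hsph1 differed by -0.15 ± 0.06 and was not called (adjusted p = 0.0571), although all 3 libraries lay below those with BAY-876 alone. It was called with quantile normalization (-0.24, adjusted p = 0.0136) and in a fit of only these libraries (-0.15, adjusted p = 0.0294), over a range of 0.0136 to 0.183 for all alternatives. The authors' deposited table gives Hsph1 a log2 fold change of -0.09 (adjusted p = 0.21). It has the genes called here as higher, and Hspa8 in addition (0.18, adjusted p = 0.0006).

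Adding BAY-876 to TNF raised 3 of the 8 and lowered 1, against 10.4% higher and 23.6% lower over all tested genes. Quantile normalization changed the genes called higher from 30.5 to 47.6% of all called. Hspa8 stood at 3400, 3294 and 3291 TPM with TNF and at 4196, 3908 and 3880 TPM with both, without overlap. It rose by 0.26 ± 0.06 (log2 ± SE, adjusted p = 0.00593), and Hspe1 rose by 0.20 ± 0.05 (adjusted p = 0.00541). Hsp90ab1 rose by 0.11 ± 0.02 (adjusted p = 0.0054), a call lost with quantile normalization (0.02, adjusted p = 0.799). Dnajb1 fell by 0.18 ± 0.06 (adjusted p = 0.0412), and this was lost in 9 of 13 alternatives, where its adjusted p ranged from 0.0358 to 0.249. Hspa1b (0.25 ± 0.11, adjusted p = 0.0955) was called only with quantile normalization (0.35, adjusted p = 0.0303) and Hspd1 (0.06 ± 0.03, adjusted p = 0.159) only without replicate 2 of the combination (0.08, adjusted p = 0.039), each among 13 alternatives with adjusted p up to 0.197 and 0.346. The authors' deposited table gives Dnajb1 an adjusted p of 0.397. It has Hspa8, Hspe1 and Hsp90ab1 higher, and Hspa1b and Hspd1 in addition.

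**Figure D1:**
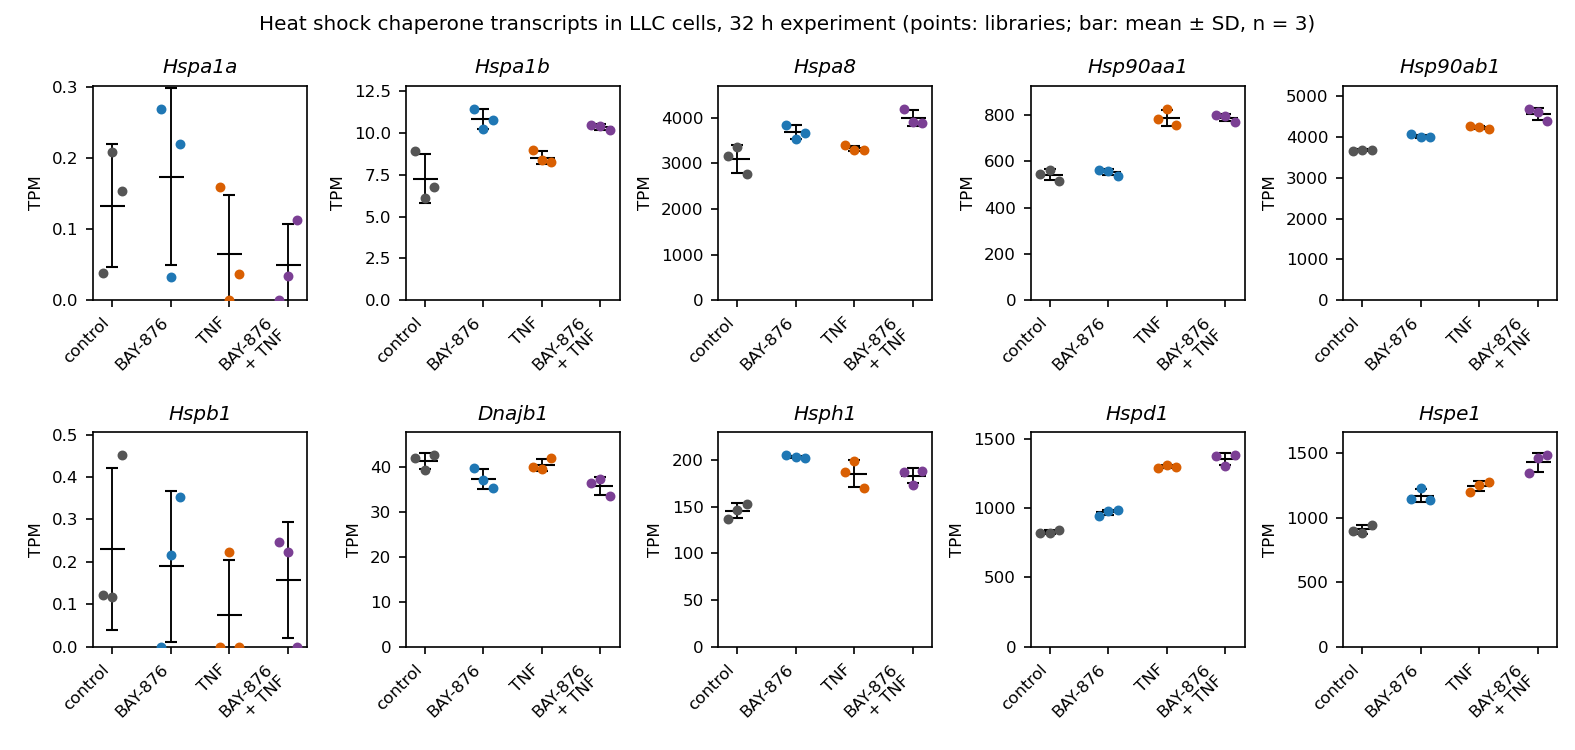
TPM of the 10 chaperone genes (y axes, each from 0) in the 4 groups of the 32 h experiment (x axes), with points for libraries and bars for the mean ± SD of 3. Hspd1 and Hsp90aa1 step up in both groups with TNF, Hspa8 is highest with both agents, and the scales of Hspa1a and Hspb1 end below 1 TPM.

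The interaction, which is the response to BAY-876 in the presence of TNF minus that in its absence, was called for 1 of the 8 genes, against 1.56% of all tested genes in either direction. That gene was Hsph1, with a difference of -0.50 ± 0.08 (log2 ± SE, adjusted p = 0.0132). BAY-876 alone raised it by 0.48, and in the presence of TNF the difference was -0.02 ± 0.06 (adjusted p = 0.862). The libraries with TNF (170 to 199 TPM) and with both agents (174 to 189 TPM) overlapped, and both groups lay between control (137 to 153 TPM) and BAY-876 alone (202 to 205 TPM). The call of Hsph1 held in all 18 alternatives, with adjusted p from 0.00964 to 0.0375. Hspd1 (-0.17 ± 0.04, adjusted p = 0.0715) and Hspe1 (-0.17 ± 0.06, adjusted p = 0.25) were not called. With quantile normalization Hspe1 was called as well (-0.21, adjusted p = 0.0462, with a range of 0.0462 to 0.416 over its alternatives).

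In the 36 h experiment, the same concentration of BAY-876 lowered 2 of the 8 tested genes and raised none, against 7.1% lower and 7.34% higher, or 14.4% in either direction, among all 12937 tested genes. Hspa8 stood at 62173, 62608 and 60541 normalized counts with vehicle and at 47560, 47785 and 48603 with BAY-876. The groups were well separated, with a fall of 0.36 ± 0.03 (log2 ± SE, 1.29-fold, adjusted p = 0.00053). It was called in all 12 alternatives. Hspd1 stood at 34882, 34673 and 35469 normalized counts with vehicle and at 31284, 31594 and 31431 with BAY-876. It fell by 0.16 ± 0.03 (adjusted p = 0.0187). This call was lost in 6 of 12 alternatives, among them without a filter on low values (adjusted p = 0.0682), without BAY-876 replicate 3 (0.0526) and without vehicle replicate 1 (0.0831), 2 (0.0789) or 3 (0.101), in a range of 0.00109 to 0.101 over all alternatives, while the difference stayed between -0.21 and -0.15.

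The other 6 were not called at 36 h. With the called genes counted, the libraries of the groups did not overlap in 3 genes upwards and 4 downwards, against 18.3% and 18.4% of all tested genes. Hspe1 differed by 0.23 ± 0.08 (log2 ± SE, adjusted p = 0.0721), at 6210, 6069 and 6027 normalized counts with vehicle and 8163, 6485 and 6987 with BAY-876. It was called when BAY-876 replicate 1 (0.14, adjusted p = 0.0367) or replicate 2 (0.31, adjusted p = 0.0326) was left out, in a range of 0.0326 to 0.187. Hsph1 differed by -0.13 ± 0.04 (adjusted p = 0.0905), Dnajb1 by 0.20 ± 0.07 (adjusted p = 0.0779), Hsp90aa1 by -0.08 ± 0.04 (adjusted p = 0.196), Hsp90ab1 by 0.06 ± 0.03 (adjusted p = 0.231) and Hspa1b by 0.20 ± 0.16 (adjusted p = 0.428). Hspa1a (0 to 7.06 normalized counts) and Hspb1 (0 to 5.04) were below the filter of 10 and were not tested.

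**Figure D2:**
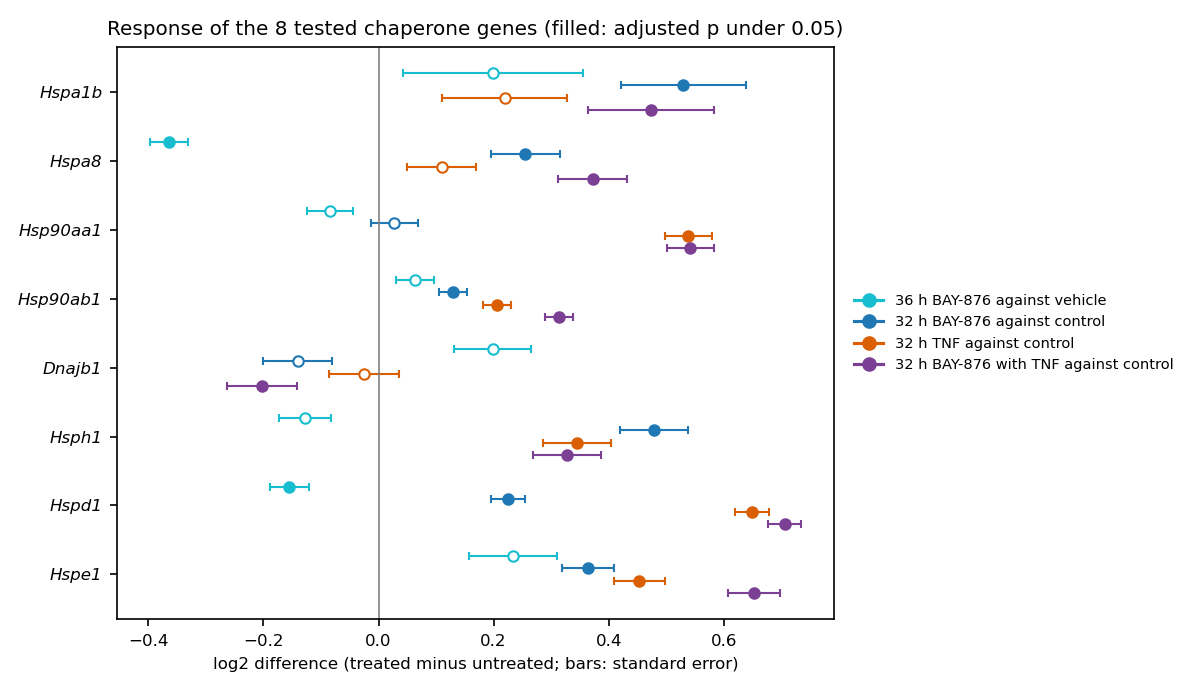
Differences of the 8 tested genes (y axis) on the log2 scale (x axis), with bars for the standard error and filled points for an adjusted p under 0.05. Hspa8 is at -0.36 with BAY-876 at 36 h and at 0.26 at 32 h, and Hspd1 has its highest values in both comparisons with TNF.

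The direction with BAY-876 thus differed between the experiments for Hspa8 (-0.36 at 36 h and 0.26 at 32 h) and Hspd1 (-0.16 and 0.23), both called in both (Hspd1 at 36 h with the losses given above), and for Hsph1 (-0.13, not called, and 0.48). In all 3 genes the groups of each experiment did not overlap. Libraries with BAY-876 all lay higher than control in 16.4% of all tested genes at 32 h and lower than vehicle in 18.4% at 36 h. The share of all genes with both was not computed. The experiments differ in exposure, control, table and unit, so the difference was not tested. Hspe1 did not overlap between groups in either experiment and was higher with BAY-876 in both sets of libraries, though only called at 32 h.

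**Figure D3:**
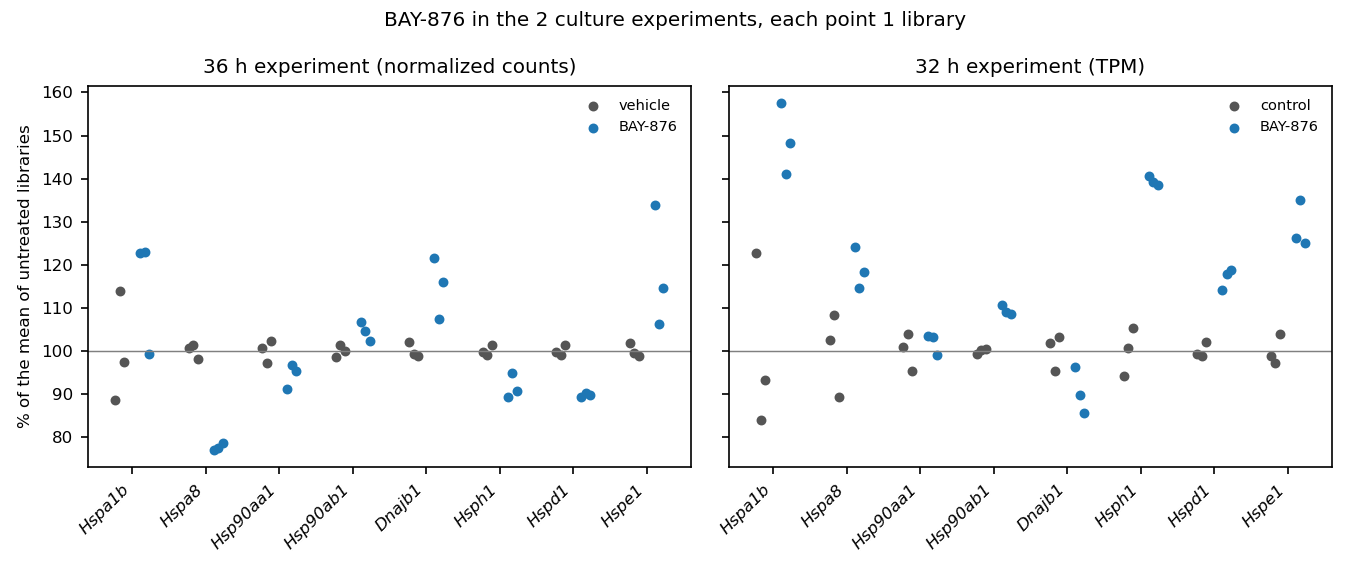
Values of the 8 tested genes in each library as a percentage of the mean of the untreated libraries of the same experiment (y axis), for vehicle or control (grey) and BAY-876 (blue), at 36 h on the left and 32 h on the right. The blue points of Hspa8, Hsph1 and Hspd1 lie below the grey points at 36 h and above them at 32 h.

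The balance within pairs was also compared between groups. The share of Hsp90aa1 in the summed TPM of both cytosolic HSP90 genes was 12.9 ± 0.519% in control (SD, n = 3), 12.1 ± 0.206% with BAY-876, 15.7 ± 0.542% with TNF and 14.7 ± 0.144% with both. In each of the 5 pairs of groups compared the libraries did not overlap, and the permutation p (exact, 2-sided) was 0.1, the smallest that 3 against 3 libraries allow (Benjamini-Hochberg adjusted p = 0.117 over 7 comparisons). At 36 h, where the share is of counts and not of length-scaled values, it was 20.8 ± 0.609% with vehicle and 19.1 ± 0.715% with BAY-876 (n = 3, exact permutation p = 0.1). The ratio of Hspe1 to Hspd1 was 1.10 ± 0.0203 in control (n = 3), 1.21 ± 0.0514 with BAY-876, 0.959 ± 0.0277 with TNF and 1.06 ± 0.0742 with both. BAY-876 and TNF thus lay on opposite sides of control without overlap (exact permutation p = 0.1 for each, adjusted 0.14 over 7 comparisons). The ratio with both agents overlapped control (exact permutation p = 0.5). In the 36 h counts the same ratio was 1.32-fold higher with BAY-876 (n = 3, exact permutation p = 0.1).

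Other genes of the chaperone network were taken from 10 lists, whose counts are read against the shares of all tested genes: 19.4% higher and 26.1% lower with TNF, and 11.5% higher and 25.8% lower with BAY-876 at 32 h. Hsf1 itself was called higher with TNF (54.7 ± 1.61 to 66.8 ± 1.91 TPM, 0.28 ± 0.06 log2, adjusted p = 0.00188) and with both agents (0.22 ± 0.06, adjusted p = 0.00693), and was not called with BAY-876 at 32 h (-0.04 ± 0.06, adjusted p = 0.623) or 36 h (-0.01 ± 0.06, adjusted p = 0.941). The cytosolic chaperonin TRiC, which folds actin and tubulin, had 8 of 8 subunits higher with TNF, at a median of 0.39 (log2), among them Cct3 and Cct8 (0.56 each). With BAY-876, 3 of the 8 were higher at 32 h (Cct2 by 0.12 and Cct6a by 0.11, the latter lost in 8 of 13 alternatives) and none was called at 36 h. Of the other heat shock factors, Hsf4 rose with BAY-876 at 36 h (0.82 ± 0.21) and 32 h (0.48 ± 0.15) and fell with TNF (by 0.51 ± 0.15). These calls were lost in 6 of 11, 4 of 12 and 3 of 12 alternatives.

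Among 15 co-chaperones of HSP90, 9 rose and 2 fell with TNF (19.4% and 26.1% of all tested genes). Fkbp4, an immunophilin, rose by 0.41 ± 0.03 (log2 ± SE), Ppid by 0.53 ± 0.06, and the ubiquitin ligase Stub1 (CHIP) fell by 0.28. With BAY-876 at 32 h, 5 of the 15 rose and 3 fell (11.5% and 25.8% of all tested genes). Stub1 rose by 0.57 ± 0.04 and Pih1d1 by 0.96 ± 0.13. At 36 h, 2 rose and 2 fell (7.34% and 7.1% of all tested genes), and the same Stub1 (0.32 ± 0.08) and Pih1d1 (0.92 ± 0.15) were the 2 that rose. The call of Stub1 there was lost without BAY-876 replicate 3 or any single vehicle library (adjusted p up to 0.0992). Of the 20 mitochondrial chaperones and proteases, 2 were called at 36 h, both higher: Lonp1, a matrix protease (0.56 ± 0.05), and Hspa9, the mitochondrial HSP70 (0.31 ± 0.04). At 32 h they rose by 0.63 ± 0.05 and 0.52 ± 0.04 with BAY-876, among 6 higher and 1 lower of the 20. With TNF, 11 of the 20 rose and 2 fell. The 2 of 20 at 36 h lie near the share of all tested genes.

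Hspa4l, an HSP110 protein related to Hsph1, was called higher with BAY-876 at 36 h (0.44 ± 0.10 log2) and 32 h (0.78 ± 0.10) and with TNF (0.97 ± 0.10). Its call at 36 h was lost without BAY-876 replicate 3 or vehicle replicate 2 or 3 (adjusted p up to 0.0762). Its list of 6 tested cytosolic HSP70 and HSP110 genes had 1 higher and 4 lower with BAY-876 at 32 h, and 3 higher and 2 lower with TNF. Of 14 J-domain proteins of the cytosol, 2 fell at 36 h with BAY-876 and none rose, against 7.1% lower over all tested genes. Both, Dnaja1 (-0.33 ± 0.05) and Dnaja2 (-0.19 ± 0.05), are partners of HSP70. The call of Dnaja2 was lost in 7 of 12 alternatives, among them each vehicle library and BAY-876 replicate 3 left out (adjusted p up to 0.152). At 32 h, 1 rose and 3 fell with BAY-876 (11.5% and 25.8% of all tested genes), and 4 rose and 3 fell with TNF (19.4% and 26.1%), counts near those of all genes, with Dnajc2 up by 0.78 ± 0.05 and Dnajb4 down by 0.75 ± 0.06. Among 8 exchange factors and HSP70 regulators, 2 fell and none rose with BAY-876 at 36 h (7.1% lower over all tested genes). Both calls were lost in some alternatives. At 32 h, 1 rose and 2 fell with BAY-876 (11.5% and 25.8%), and 4 rose and 1 fell with TNF (19.4% and 26.1%). Bag3 fell with BAY-876 at 32 h (by 0.24 ± 0.05) and was the 1 that fell with TNF (by 0.46 ± 0.05). A list of 13 genes was taken as other targets of HSF1, and most of them also stand in the lists above. Of the 13, 4 rose and 4 fell with BAY-876 at 32 h (11.5% and 25.8% of all tested genes). With TNF, 6 rose and 5 fell (19.4% and 26.1%), and Cirbp fell by 1.57 ± 0.09. Whether HSF1 acts on Cirbp or on the other genes of this list was not tested. The prefoldin list had 4 of 6 higher and 1 lower with TNF, and 0 higher and 2 lower with BAY-876 at 32 h, the latter near the share of all tested genes. All 4 tested small heat shock protein genes fell with TNF (26.1% of all tested genes), including Hspb6 (by 0.73 ± 0.11) and Cryab, whose call was lost in 5 of 11 alternatives (adjusted p up to 0.0905).

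Likeness of pattern was measured as Pearson's r of log2(TPM + 1) over the 12 libraries of the 32 h experiment, which share their 4 groups, and it is given as a description. The genes most like Hspd1 were Ppa1 (r = 0.996), Slc25a5 (0.995) and Trim47 (0.994). Those most like Hspe1 were Fabp5 (0.979), Grem1 (0.979) and Atp5g1 (0.976), and those most like Hsp90aa1 were Stab1 (0.990), Riox1 (0.989) and Ddx27 (0.989). Map1b (0.994), Atad3a (0.993) and Larp1 (0.991) led for Hsp90ab1, and Got1 (0.969), Bsn (0.951) and Mta1 (0.951) for Hspa8. For Hsph1 they were Gpr135 (0.919), Ftx (0.912) and Elovl6 (0.907), and for Dnajb1 Trim59 (0.935), Pdlim4 (0.920) and Fancd2 (0.918). Slc25a38 (0.925) and Sumo3 (0.918) were among those most like Hspa1b. Among the chaperones themselves r was 0.949 for Hsp90aa1 with Hspd1 and 0.900 for Hspd1 with Hspe1. It was negative for Dnajb1 with each of the other 7 tested genes, from -0.24 with Hsp90aa1 to -0.76 with Hspa8.

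On day 16 the inducible HSP70 genes were higher in OT1 cells and the HSP90 and mitochondrial genes lower. All 10 genes passed the filter (1 TPM in 5 libraries), and 3 were higher and 4 lower, against 30.1% higher, 44.4% lower and 74.5% in either direction over all 13511 tested genes, so the counts lie near those of all genes. Of the 3 higher, Hspb1 passed the filter mainly through the OT1 libraries, the group in which it was higher. Libraries of the cell types did not overlap in 1 gene upwards and 4 downwards, against 25.3% and 37.8% of all tested genes. Hspa1a stood at 2.95, 2.16, 2.35, 3.39 and 1.14 TPM in tumour cells and at 43.6, 65.7, 78.6, 55.0 and 16.0 TPM in OT1 cells. No libraries overlapped, and the difference was 3.83 ± 0.37 (log2 ± SE, 14.2-fold on that scale, adjusted p = 1.95e-06). Hspa1b stood at 29.2, 32.3, 29.9, 51.5 and 10.7 TPM in tumour cells and at 73.0, 91.2, 118, 90.5 and 18.5 TPM in OT1 cells. These groups overlapped through OT1 replicate 5, and the difference of 1.25 ± 0.50 (adjusted p = 0.0383) was lost without a filter (adjusted p = 0.0745) and without any single one of tumour replicates 1, 2, 3 and 5 or OT1 replicates 1 to 4 (adjusted p 0.0536 to 0.0958, with a range of 0.000482 to 0.0958 over all alternatives). As a sum, Hspa1a and Hspa1b were 1.88 higher (adjusted p = 0.00347).

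Hspb1 stayed low in both cell types, at 0, 0.27, 0.33, 0.35 and 1.25 TPM in tumour cells and 2.88, 2.72, 3.18, 2.39 and 0.63 TPM in OT1 cells. It was called higher in OT1 cells (1.20 ± 0.28 log2, adjusted p = 0.00206), with overlap between replicate 5 of each group. Its filter was met only through OT1 replicates 1 to 4 and tumour replicate 5. With any of these left out the gene was not tested, so its call leans on the group in which it was higher.

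The mitochondrial chaperonin was the lowest in OT1 cells relative to tumour cells. Hspd1 stood at 866, 845, 822, 707 and 873 TPM in tumour cells and at 256, 202, 210, 210 and 124 TPM in OT1 cells, a difference of -2.07 ± 0.16 (log2 ± SE, 4.19-fold lower, adjusted p = 3.71e-07). Hspe1 stood at 887, 791, 771, 783 and 808 TPM in tumour cells and at 370, 286, 334, 329 and 202 TPM in OT1 cells, a difference of -1.43 ± 0.14 (adjusted p = 2.51e-06). No libraries of the 2 cell types overlapped for either gene. The ratio of Hspe1 to Hspd1 was 1.53 ± 0.0938 in OT1 cells (SD, n = 5) and 0.986 ± 0.0784 in tumour cells, higher in 5 of 5 OT1 libraries (exact permutation p = 0.00794, the smallest that 5 against 5 allow, adjusted 0.0556 over 7 comparisons).

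Hsp90aa1 stood at 758, 681, 693, 671 and 778 TPM in tumour cells and at 360, 272, 359, 279 and 194 TPM in OT1 cells, a difference of -1.32 ± 0.15 (log2 ± SE, adjusted p = 9.12e-06). Hsp90ab1 was lower by a similar amount, -1.18 ± 0.16 (adjusted p = 3.14e-05), at 3435 to 4221 TPM in tumour cells and 1128 to 2190 TPM in OT1 cells. The share of Hsp90aa1 in their sum was 14.4 ± 1.10% in OT1 and 15.7 ± 1.35% in tumour cells (n = 5, exact permutation p = 0.119), and without tumour replicate 2 it differed by -1.75 percentage points (exact permutation p = 0.0317). Hspa8 (-0.07 ± 0.11, adjusted p = 0.55), Dnajb1 (-0.12 ± 0.13, adjusted p = 0.396) and Hsph1 (-0.30 ± 0.15, adjusted p = 0.0952) were not called. Hsph1 was called without OT1 replicate 1 (-0.39, adjusted p = 0.0287) or 3 (-0.38, adjusted p = 0.045), in a range of 0.0287 to 0.724. Hspa8 ranked first of the 10 in OT1 cells, at 3019 ± 409 TPM (n = 5) against 1738 ± 391 TPM for Hsp90ab1 without overlap, while Hsp90ab1 ranked first in tumour cells and in all 4 groups of the 32 h experiment. The 10 transcripts made up 0.584 ± 0.0940% of OT1 libraries and 0.957 ± 0.0245% of tumour libraries by TPM (n = 5).

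**Figure D4:**
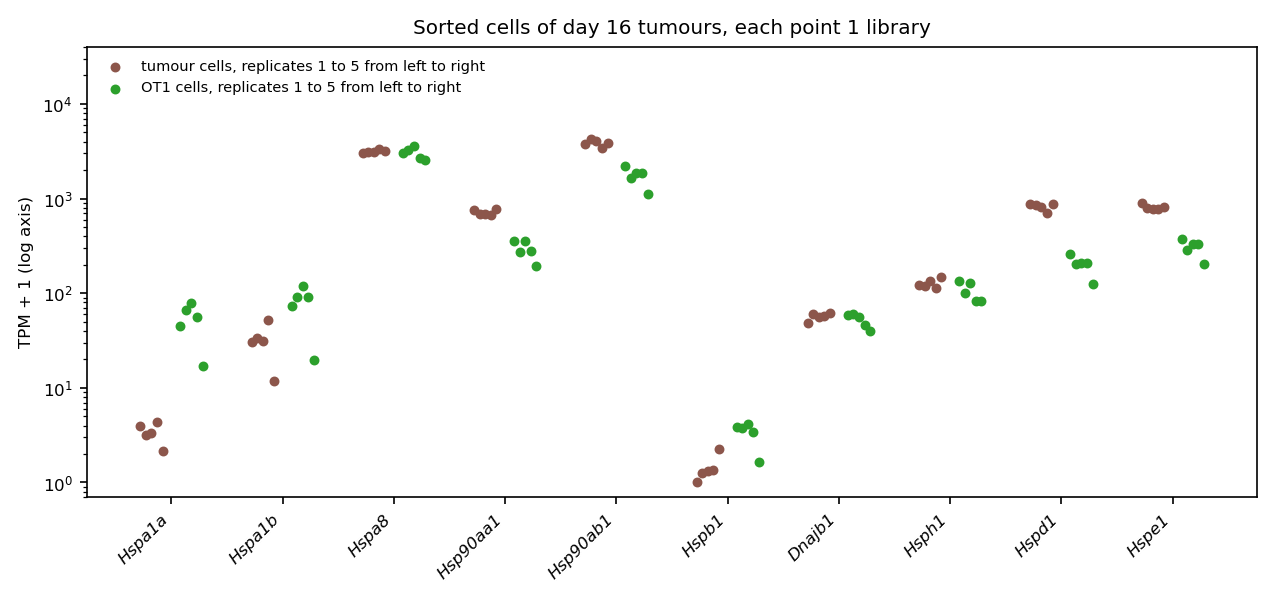
TPM + 1 (y axis, log scale) of the 10 genes (x axis) in tumour cells (brown) and OT1 cells (green) of day 16, 1 point per library, replicates 1 to 5 from left to right within each group. The groups separate upwards for Hspa1a and downwards for Hsp90aa1, Hsp90ab1, Hspd1 and Hspe1, and OT1 replicate 5 is the lowest OT1 library for 9 of the 10 genes.

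Myeloid transcripts moved with the same contrast. All 16 myeloid markers were at 1 TPM or more in every OT1 library, and their summed level was 1964, 9282, 4131, 5839 and 26691 TPM in OT1 replicates 1 to 5, against 184 to 331 TPM in tumour libraries. OT1 replicate 5 thus had the most myeloid transcripts and the lowest values of 9 of the 10 chaperones. Among tumour libraries, replicate 5 had the most myeloid transcripts, and it was the lowest for Hspa1a and Hspa1b and the highest for Hspb1, Hsp90aa1, Dnajb1, Hsph1 and Hspd1. Leaving out OT1 replicates 2, 4 and 5 was a choice made after seeing the data. It kept only OT1 replicates 1 and 3, whose myeloid markers still summed to 1964 and 4131 TPM. In that fit 2 of the 9 tested genes were higher and 4 lower, against 20.7% higher and 47.0% lower over all its tested genes. Hspa1a was then 4.17 and Hspa1b 1.72 higher, while Hspd1 (-1.82), Hspe1 (-1.20), Hsp90aa1 (-0.99) and Hsp90ab1 (-0.93) were lower, with limma adjusted p of 0.00744 or less. These p follow a choice made on the data, which also took out replicate 5, through which Hspa1b overlapped between the cell types. Hspb1 was below the filter in that fit. At 32 h in culture, myeloid markers summed to no more than 28.3 TPM in any library. On day 16, summed fibroblast markers were 27.6 to 85.5 TPM in OT1 and 333 to 843 TPM in tumour libraries, and tumour markers 61.3 to 235 and 1895 to 2082 TPM. Endothelial markers summed to 44.5 to 60.1 TPM in OT1 and to no more than 7.94 TPM in tumour libraries, and erythroid markers to 65.0 to 2781 and 10.1 to 899 TPM. Of the 5 endothelial markers, only 1 to 3 were at 1 TPM or more in an OT1 library. Only 1 of the 5 passed the filter, so the endothelial sum rests on few genes.

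Immediate-early genes, a group that is also known to rise while tissue is dissociated, stood at 2083 to 5934 TPM in sum over 20 genes in OT1 cells and at 1769 to 2270 TPM in tumour cells, with 11 of the 20 higher and 4 lower, against 30.1% and 44.4% of all tested genes. Among the 11 were Btg2 (5.34 ± 0.27 log2) and Egr1 (4.74 ± 0.39), and Fosl1 was among the 4 (-3.75 ± 0.38). Their part, and that of myeloid transcripts, in the difference of Hspa1a and Hspa1b was not tested.

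The rest of the network was mostly lower in OT1 cells, as were 44.4% of all tested genes. All 8 TRiC subunits were lower, from Cct7 (-0.37) to Cct3 (-1.82 ± 0.12 log2), as were 10 of 15 HSP90 co-chaperones, such as Ppid (-1.75 ± 0.14) and Fkbp4 (-1.51 ± 0.13), with 2 higher. Of the 20 mitochondrial chaperones and proteases, 15 were lower, among them Hspa9 (-1.73 ± 0.13) and Lonp1 (-1.36 ± 0.12), and 3 were higher, Dnajc15 (1.74 ± 0.20) the most. Of 8 exchange factors and regulators 7 were lower, with Bag2 at 10.4 ± 2.37 TPM against 54.3 ± 2.92 TPM (SD, n = 5). The J-domain list was split, with 4 of 14 higher and 6 lower. Dnajb5 (2.22 ± 0.21) and Dnaja4 (1.93 ± 0.15) were among the higher ones. Hsf1 was lower in OT1 cells (42.9 ± 2.10 against 52.4 ± 6.66 TPM, -0.28 ± 0.09, adjusted p = 0.0187), which was lost without OT1 replicates 2, 4 and 5 (-0.27, adjusted p = 0.0994). Serpinh1, the collagen chaperone HSP47, stood at 29.8 ± 15.8 TPM in OT1 and 394 ± 49.7 TPM in tumour cells (-3.84 ± 0.31), and the small heat shock protein gene Hspb8 at 5.96 ± 3.48 and 80.2 ± 4.34 TPM (-3.73 ± 0.34).

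Set beside the cultured cells, whose table was normalized separately so that no test was made, tumour cells of day 16 had Hspa1b at 30.7 ± 14.5 TPM (SD, n = 5) where cultured control cells had 7.27 ± 1.47 TPM (n = 3), and Hspa1a at 2.40 ± 0.856 TPM where control cells had 0.133 ± 0.0867 TPM. Hspd1 (822 and 828 TPM) and Hspa8 (3152 and 3095 TPM) stood at like means in the 2 tables. The day 16 cells were LLC-OVA-NGFR and not wild-type LLC, and they were sorted from tumours that had received OT1 cells. The part of each of these differences was not tested.

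**Figure D5:**
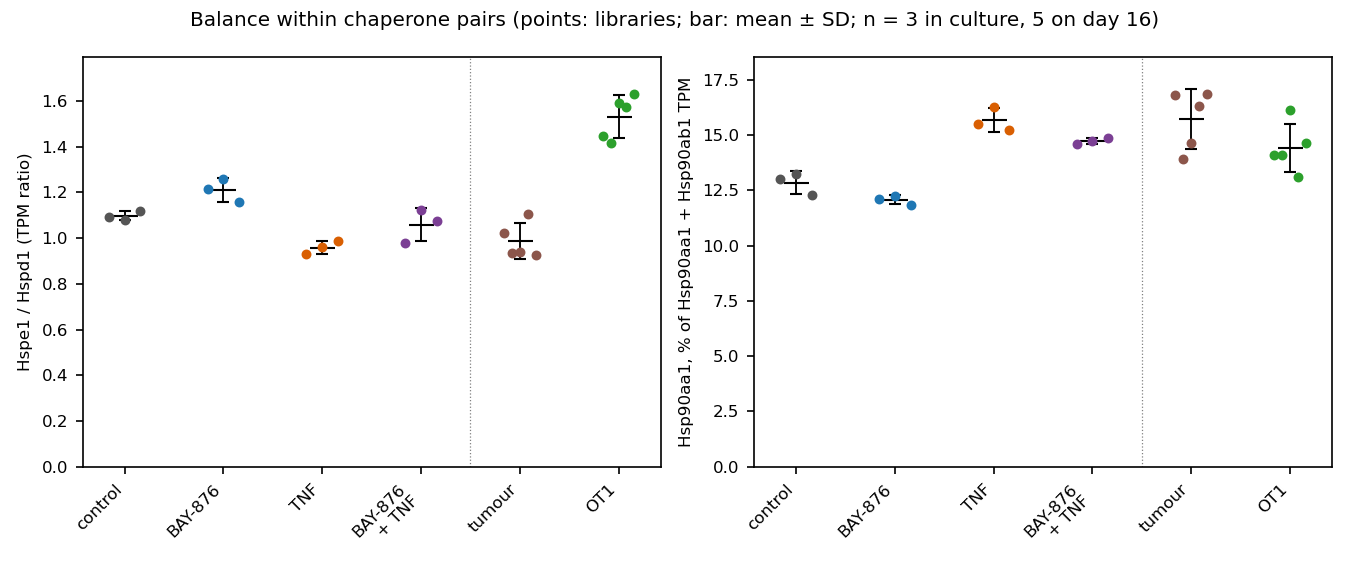
Ratio of Hspe1 to Hspd1 (left y axis) and share of Hsp90aa1 in the sum of both cytosolic HSP90 genes in percent (right y axis), from TPM, by group (x axes), with points for libraries and bars for the mean ± SD. The ratio is 1.53 in OT1 cells and between 0.959 and 1.21 in the other 5 groups, and the share is above 14 on average in every group but control and BAY-876 alone.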

How the data were processed

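RNA was measured by RNA-seq in 28 libraries of mouse LLC tumour cells and OT1 T cells. STAR 2.6.1d, Salmon (0.14.1 and 0.13.1), DESeq2 1.34.0 and mm10 are named in the submitters' processing notes without their roles. The 36 h table holds a deposited signal, counts that the authors normalized with DESeq2, per the name of the table. The other tables hold TPM as deposited, with a total of 1000000 in every library, which leaves the depth unknown. From the authors' deposited comparison tables at 32 h, the log2 fold changes, standard errors and adjusted p-values were copied. The deposited TPM values that include the 32 h experiment have a further 24 columns. These are from other time points, match no sample label and were not used. For 2 libraries of the combination, treatment label and title name different compound numbers, and the title decided.

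The scale was log2(value + 1), which understates differences at low levels. A gene was tested if 3 libraries (5 on day 16) reached 1 TPM, or 10 normalized counts at 36 h. Each table was fitted separately with limma 3.58.1 (R 4.3.3, mean-variance trend). All 12 libraries at 32 h entered 1 fit, and 8 comparisons were made in all. Ratios were compared by exact permutation of libraries (SciPy 1.17.1, 2-sided). The scripts were tested on simulated data. Replicate numbers were not taken to pair the samples. Strand use in counting was not stated in the sources, so reads from the overlap of Hspd1 and Hspe1, and from Hspa1a and its antisense partner, cannot be told apart. Alternatives changed the pseudocount, the filter (none, or a higher mean), the normalization (quantile), the libraries in the fit, the block, or left out each library, and summed Hspa1a with Hspa1b.

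The genes and the lists were chosen with earlier results of these data known. Named are the 10 genes in every comparison, Hsf1, a selection of the 2 called genes of each list with the largest difference per direction, and the 3 genes of most like pattern with a mean of at least 5 TPM and no predicted name. One gene this rule names is not reported here. Cct7 was named after its value was seen, as the end of the range of its list.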

Additional observations from a re-analysis of the deposited data

Results flagged for a closer look

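Hspb1 in tumour cells of day 16 had 1 library far from the others: replicate 5 stood at 1.25 TPM, and the other 4 at 0.355 TPM or less. About 1 in 20 groups of 5 is singled out by such a rule by chance.

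Hsph1 responded differently to BAY-876 with and without TNF, with an interaction of -0.50 (log2, limma adjusted p = 0.0132).

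The response to BAY-876 had opposite directions in the 36 h and 32 h experiments in 3 genes, with no overlap between the libraries of the groups in either. Hspa8 was at -0.36 and 0.26, Hsph1 at -0.13 and 0.48, and Hspd1 at -0.16 and 0.23 (log2). Over all tested genes, libraries with BAY-876 all lay lower in 18.4% at 36 h and higher in 16.4% at 32 h. The share of all genes with both was not computed, and the difference between the experiments was not tested.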

How the results depend on the processing

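Over the alternatives of the 10 genes, 858 values kept direction and side of the threshold, 29 lost a call, 12 gained one and 24 changed sign, all 24 in differences that were not called. At 36 h, the count of called chaperones was 1 without a filter, and 1 to 3 with each library left out, when all genes called numbered 648 to 2394 in place of 1868. With the replicate block it was 1, through Hspd1 (adjusted p = 0.0537), and at 32 h the block ended the call of Dnajb1 for BAY-876 with TNF against TNF (adjusted p = 0.056). The block changed no other call among the 10. No label ties equal numbers to 1 animal or dish. Deviations of same-numbered libraries from their group means correlated at -0.074 to -0.019 at 36 h and -0.19 to 0.12 at 32 h. On day 16 all 5 correlations were above 0 (0.045 to 0.11) with not every one over 0.1, and 4 of 5 libraries correlated best with their own number, a hint from the data and not from the design. Summed erythroid markers were lowest in replicate 2 and highest in replicate 4 of both cell types. There Hspa1b was higher in OT1 cells in 5 of 5 same-numbered pairs, and its adjusted p with the block was 0.000482. The interaction had 2 called chaperones with quantile normalization and, over all genes, 110 to 250 calls with each library left out against 199. The share of Hsp90aa1 on day 16 ranged from -1.75 to -0.97 percentage points with each library left out, and the ratio of Hspe1 to Hspd1 with both agents against control from -0.071 to 0.0019. The cause was not tested.

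With quantile normalization the sign changed for Hsp90aa1 with BAY-876 against control (-0.0087) and with both agents against TNF (-0.10), for Hspa1b with both against BAY-876 (0.062), for Cct2 with both against TNF (-0.039) and for Hsf1 with BAY-876 at 32 h (0.031). With each library left out, differences near 0 ranged across it: Hsf1 at 36 h (-0.038 to 0.0063) and with BAY-876 at 32 h (-0.10 to 0.0073), Hsp90aa1 with BAY-876 (-0.0073 to 0.055) and with both against TNF (-0.026 to 0.038), Hsph1 with both against TNF (-0.078 to 0.037), and in the interaction Hspa8 (-0.053 to 0.087), Hsp90aa1 (-0.053 to 0.011), Hsp90ab1 (-0.040 to 0.0048), Dnajb1 (-0.076 to 0.0090) and Hsf1 (-0.075 to 0.033). Without OT1 replicates 2, 4 and 5, Hspa8 (0.064), Dnajb1 (0.040) and Hsph1 (0.050) changed sign. Read depth is unknown for the TPM tables, so what it limits could not be computed.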
